A study of Mus musculus with 12 samples.

Results

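Potassium channel genes were taken by name: every gene of the deposited count table whose symbol begins with Kcn, except Kcne2 and Kcnj10, with at least 400 counts summed over the 12 libraries. Of 24384 genes in the table, 98 had such a symbol, 2 were left out by name and 18 fell short of the minimum, which left 78 genes. The last genes inside the minimum were Kcnk5 with 425 counts, Kcnj5 with 542 and Kcnj14 with 620, and the first outside it were Kcnrg with 399, Kcne4 with 325 and Kcnh8 with 304. All 78 passed the filter on low counts that was applied before testing. By the annotation 75 of them were protein-coding. The other 3 (Kcnq1ot1, Kcnmb4os2 and Kcnd3os) were non-coding RNAs that carry the name of a neighbouring channel gene.

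Polyadenylated RNA of mouse hippocampus was sequenced in 3 groups of 4 libraries. The first was rTg4510 mice given 3TC (lamivudine, a nucleoside drug that blocks reverse transcriptase), the second rTg4510 mice without 3TC, and the third their littermate controls. The rTg4510 mouse carries a mutant human tau transgene whose expression is driven in forebrain neurons through the Camk2a promoter, so both rTg4510 groups share the transgene, and littermates treated with 3TC were not analysed here. Libraries are named by the code in their labels, with F for female and M for male: F2, F3, M2 and M3 in rTg4510+3TC, F2, F3, M1 and M3 in rTg4510, and F1, F3, M2 and M3 in littermates. Wherever 4 values of a group are listed, they stand in that order. Neither age nor dose nor duration is given in the labels. Nor do they state whether the libraries of a group are different animals, so the spread behind each p-value is the spread between libraries and may be technical in part.

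Potassium channels let potassium leave the neuron and so set its resting potential, end its action potentials and govern how fast it fires. Pore-forming subunits fall into voltage-gated (Kv), inwardly rectifying (Kir), tandem-pore (K2P) and calcium- or sodium-activated families. Auxiliary subunits such as Kv beta, KChIP and KCNE proteins alter the surface expression and gating of the pores, and the silent Kv subunits (Kcnf, Kcng, Kcns and Kcnv) form no channel of their own but join Kv2 subunits. In the hippocampus, Kv4 channels with KChIP partners carry the dendritic A-type current, Kv7 channels the M-current, and Kir3 channels the inhibition exerted through G proteins.

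Library totals were 27351630 to 35357415 counts in rTg4510+3TC, 29732904 to 36112922 in rTg4510 and 27286787 to 58173678 in littermates. Levels are given as CPM, the count scaled to the normalised library size, and 3 counts corresponded to 0.0519 to 0.110 CPM. Some libraries stood apart in markers of other tissue, given as the mean log2 deviation of a marker list from its average over the 12 libraries. The thalamic list was at 2.09 in rTg4510+3TC F2, and littermate F1 was second with 0.8291, beside 0.562 for the striatal list. The striatal list was at 1.26 and the neocortical list at 0.975 in rTg4510 F3, and in littermate M2 the neocortical list was at 0.882 and the oligodendrocyte list at 0.807. Ttr, the transthyretin gene that choroid plexus expresses most strongly, was at 3907 CPM in rTg4510 M1 and at 3404 and 1871 CPM in littermates F1 and F3, and at 16.3 to 129 CPM elsewhere. Dentate granule markers were lowest in rTg4510 F3, where C1ql2 had 1.17 CPM, and 16.5 to 77.5 CPM elsewhere. Summed over their 10 genes each, thalamic markers reached 1104, 305 and 434 CPM at most in rTg4510+3TC, rTg4510 and littermates, striatal markers 230.1, 503 and 328 CPM, neocortical markers 670.1, 1161 and 1014 CPM, and oligodendrocyte markers 7304, 6598 and 10864 CPM. In 2 littermates, F3 and M3, sex-linked counts went against the labelled sex, and the comparisons therefore use no sex term.

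Together the 78 genes took 0.482% to 0.596% of a library's counts. Their totals over the 12 libraries ran from 425 to 307900 counts, 16 of the genes averaged more than 100 CPM, 55 more than 10 CPM and 77 more than 1 CPM, and the median gene stood at 23.0 CPM. To compare genes with each other, levels were divided by exon length (CPM per kb). On that scale the largest single contribution was Kcnab2, the Kv beta subunit that binds Kv1 channels, at 132 CPM per kb. It had 606, 770.0, 738 and 732 CPM in rTg4510+3TC, 791, 613, 578 and 820.4 CPM in rTg4510 and 779, 869, 756 and 782 CPM in littermates, and the groups overlapped. The 3 Kv beta genes made up 17.8% of the summed level of all 78 genes on average, and their share ran from 14.7% to 19.9% among the libraries. The 12 inward rectifiers followed with 15.1%, the 4 Kv3 genes with 12.7%, the 6 Kv1 genes with 10.5% and the 4 KChIP genes with 9.75%. The 4 BK genes made up 0.957%.

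**Figure D1:**
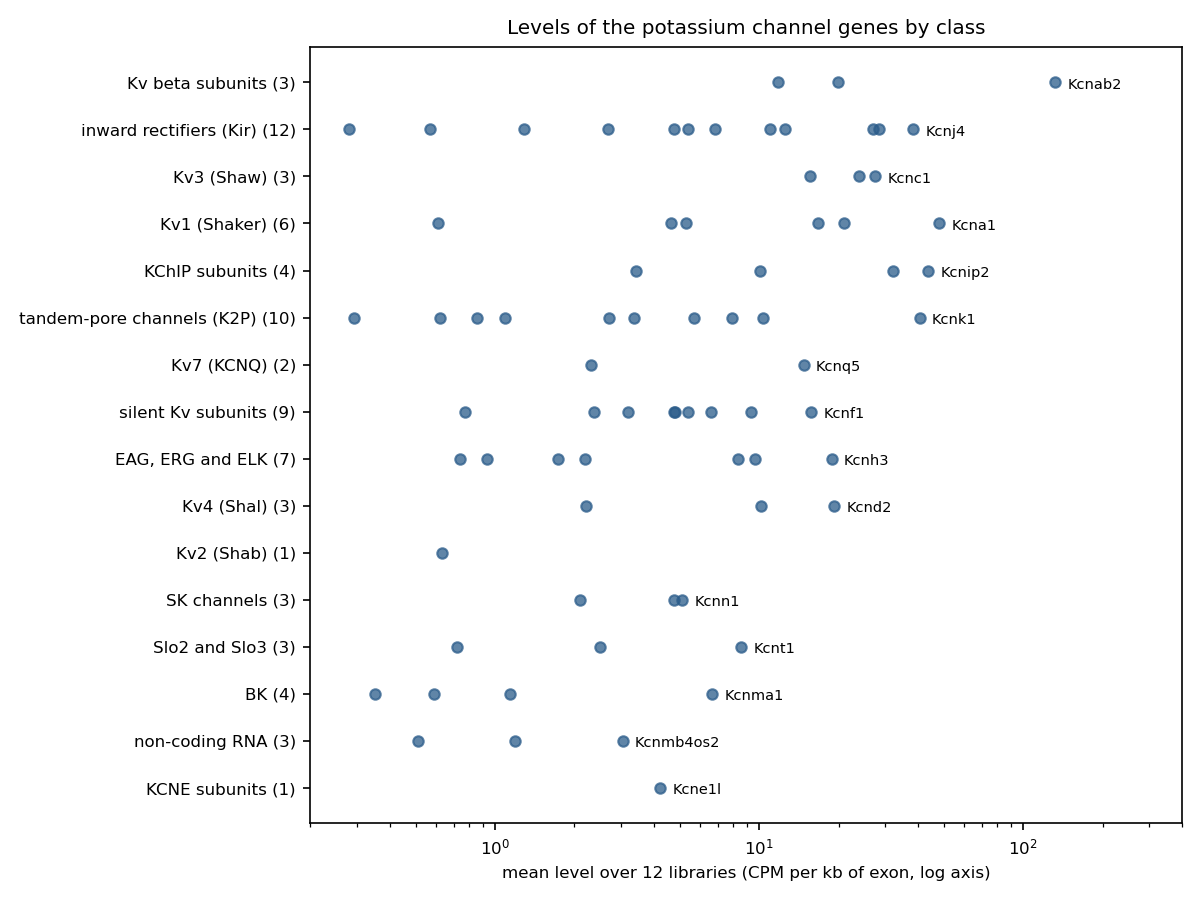
Mean level over the 12 libraries of 74 potassium channel genes (1 point per gene) in CPM per kb of exon (horizontal axis, log scale), by class (rows, with the number of plotted genes in brackets, ordered by the summed level of the class) and with names beside the highest plotted gene of most classes. Kcnab2 lies farthest right at 132 CPM per kb, and Kcnj5 farthest left at 0.281.

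The Kv3 class repolarises fast-spiking neurons quickly. Of its genes, Kcnc1 stood at 27.4 CPM per kb, Kcnc4 at 23.8 and Kcnc2 at 15.5. Kcnc1 had 415 CPM in rTg4510+3TC F2, its highest library, and 222 to 297 CPM in the other 11, and the groups overlapped.

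The Kv1 class, which controls firing threshold and transmitter release from axons, was led by Kcna1 at 48.1 CPM per kb. Over the 12 libraries Kcna1 was also the steadiest of the 78 genes, with an SD of 0.11 on the log2 scale. Averaged over the 12 libraries without the division by length, Kcna2 was higher, at 249.6 CPM against 229.8 CPM for Kcna1. Kcna1 was nevertheless above Kcna2 in rTg4510+3TC F3, rTg4510 F2 and littermates F1, F3 and M3. Kcna2 had 358, 225, 249.9 and 232 CPM in rTg4510+3TC, 224, 309, 202 and 230.5 CPM in rTg4510 and 224, 217, 305 and 218 CPM in littermates. Its highest values were those of rTg4510+3TC F2, rTg4510 F3 and littermate M2, 1 in each group, and the other 9 libraries lay between 202 and 249.9 CPM.

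Kv4 genes summed to 31.6 CPM per kb, of which Kcnd2 gave 19.2, and their KChIP partners to 89.3 CPM per kb. Kcnip2, a calcium-binding KChIP, led that class with 43.7 CPM per kb. It had 86.1, 166, 151 and 157 CPM in rTg4510+3TC, 151, 216, 158 and 152 CPM in rTg4510 and 153, 138, 106 and 188 CPM in littermates. The lowest value belonged to rTg4510+3TC F2 and the highest to rTg4510 F3, and the groups overlapped. Kcnd2 itself ran from 77.2 to 123 CPM over all libraries.

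Of the Kv7 class, whose channels carry the M-current, Kcnq5 stood at 14.8 CPM per kb and Kcnq3 at 2.31. Kcnq5 had 75.3, 116, 122 and 115 CPM in rTg4510+3TC, 109.6, 131, 94.8 and 102 CPM in rTg4510 and 135, 113, 101 and 148 CPM in littermates. Its lowest library was rTg4510+3TC F2, and the groups overlapped.

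Inward rectifiers ranged from 0.281 CPM per kb for Kcnj5 to 38.5 for Kcnj4, a strong rectifier of forebrain neurons. The G protein-gated subunits Kcnj9, Kcnj3 and Kcnj6 stood at 28.4, 27.1 and 4.78 CPM per kb. Kcnj11, the pore of the ATP-sensitive channel, stood at 12.6 and Kcnj16, a subunit found in glia, at 10.97 CPM per kb. Kcnj3, the highest of the class in CPM, averaged 133 ± 19.2 CPM in rTg4510+3TC, 149.9 ± 25.4 CPM in rTg4510 and 142 ± 13.3 CPM in littermate libraries (SD, n = 4 each).

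The K2P class, which carries leak current, was led by Kcnk1 at 40.6 CPM per kb, ahead of Kcnk2 at 10.3. Kcnk5, at 0.294 CPM per kb, was its lowest member. The silent subunit Kcnf1 stood at 15.8 CPM per kb and the ELK channel Kcnh3 at 18.8. Of the calcium- and sodium-activated channels, Kcnt1 stood at 8.53, Kcnma1, the BK pore, at 6.66, and the SK subunits Kcnn1, Kcnn2 and Kcnn3, which carry the after-hyperpolarisation, at 5.13, 4.75 and 2.09 CPM per kb. Kcnma1 averaged 114 ± 17.2 CPM in rTg4510+3TC, 114 ± 6.96 CPM in rTg4510 and 111 ± 13.2 CPM in littermate libraries (SD, n = 4 each), and Kcnn2 averaged 35.1 ± 1.52 CPM in rTg4510+3TC, 34.1 ± 8.41 CPM in rTg4510 and 37.2 ± 4.34 CPM in littermate libraries (SD, n = 4 each).

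As a description with no test, the channel genes varied more between libraries than genes overall. The median SD of log2(CPM + 0.5) over the 12 libraries was 0.34 for the 78 genes and 0.21 for the 14394 tested genes that averaged at least 1 CPM. It was over 0.5 in 18 channel genes and under 0.2 in 12. In 3 libraries, 37.2% (rTg4510+3TC F2), 41% (rTg4510 F3) and 34.6% (littermate M2) of the channel genes lay more than 0.5 log2 units from their average, against 15.5%, 16.1% and 13.3% of all genes in the same libraries. In the other 9 libraries the share was 5.13% to 11.5% of channel genes, against 4.87% to 9.98% of all genes. Over those 9 libraries the median SD was 0.21 for channel genes and 0.16 for all genes. The 3 libraries held the highest thalamic, striatal, neocortical and oligodendrocyte scores given above, but rTg4510 F3 was the lowest of the 12 in the oligodendrocyte list, at -1.10. Littermate F1, second in both the thalamic and the striatal list, had 6.41% of its channel genes that far from average. The part of neighbouring tissue in these deviations was not tested.

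**Figure D2:**
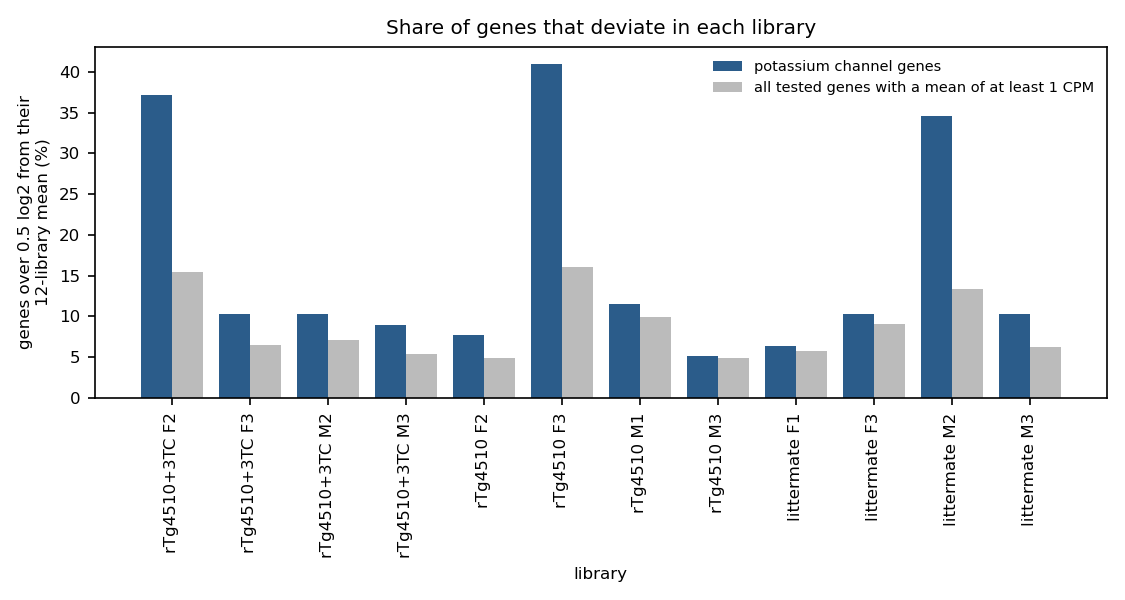
Share of genes lying more than 0.5 log2 units from their 12-library average (vertical axis, percent) in each library (horizontal axis), for the 78 potassium channel genes in blue and all tested genes averaging at least 1 CPM in grey. The blue bars reach 37.2%, 41% and 34.6% in rTg4510+3TC F2, rTg4510 F3 and littermate M2, and stay between 5.13% and 11.5% elsewhere.

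The 3 libraries shared some of their deviating genes and differed in others. Kcnab3 was above its average in all 3, at 1.02 in rTg4510+3TC F2, 1.28 in rTg4510 F3 and 1.04 in littermate M2. Kcnh4, Kcnh3 and Kcns1 were above average in both rTg4510 F3 and littermate M2 and below it in rTg4510+3TC F2. In rTg4510+3TC F2, 15 genes were above their average by more than 0.5 and 14 below. Those above included Kcng4, a silent subunit, at 1.28, Kcnab3 at 1.02, the ERG channel Kcnh2 at 0.98 and Kcnc1 at 0.70. Those below included Kcnj4 at -1.46, Kcnv1 at -1.31 and Kcnh3 at -1.31. In rTg4510 F3, 25 were above and 7 below, with Kcnh4, Kcnh7 and Kcnh5, of the EAG, ERG and ELK class, at 2.02, 1.87 and 1.86, and Kcng2 at -1.92. In littermate M2, 18 were above and 9 below, with Kcnh4 at 2.22, Kcns1 at 1.19 and Kcnj6 at -0.91. Kcnj4, Kcnv1 and Kcnh3, all low in rTg4510+3TC F2, were high in rTg4510 F3, at 1.10, 1.38 and 1.09.

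**Figure D3:**
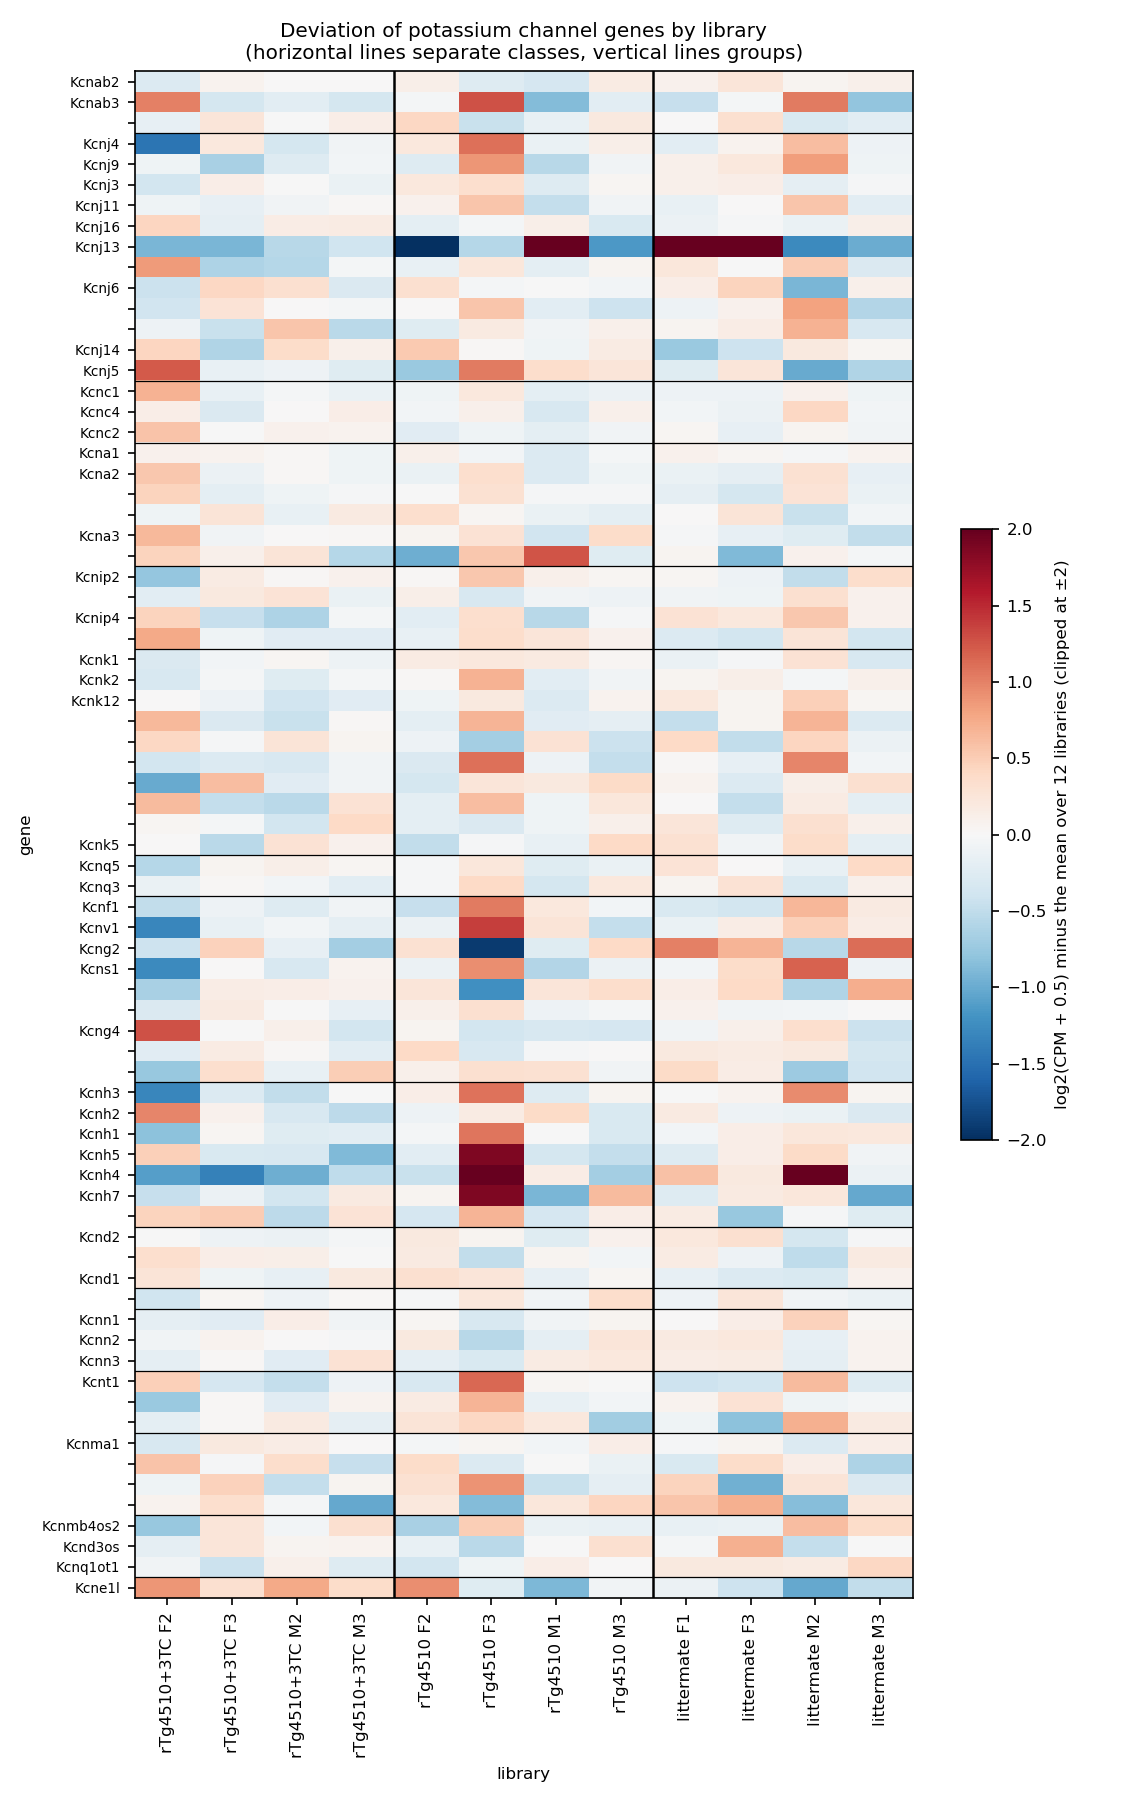
Deviation of 74 potassium channel genes (rows, grouped by class, with the genes described in the text named) in each library (columns, grouped as rTg4510+3TC, rTg4510 and littermate) from its 12-library average of log2(CPM + 0.5), in log2 units on the colour scale. The columns of rTg4510+3TC F2, rTg4510 F3 and littermate M2 are the most strongly coloured, and Kcnj13 is coloured in rTg4510 M1 and littermates F1 and F3.

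Promoters are printed for the genes with the largest deviations above average in rTg4510+3TC F2 (Kcng4 and Kcnh2) and in rTg4510 F3 (Kcnh4 and Kcnh7), among protein-coding genes averaging at least 5 CPM with 1 RefSeq window, so that promoters of both sets can be read side by side. Each runs from 250 bases before to 50 bases after a start listed in RefSeq on GRCm38.p6, 5′ to 3′ on the gene's own strand. For Kcnh2 and Kcnh4 that start lies inside the annotated gene (chr5:24319589-24351604 and chr11:100740376-100759942). Capitals mark matches to the 4 motifs searched on both strands: a TATA box (TATAAA), a cyclic AMP response element (TGACGTCA), an E-box (CACGTG) and a GC box (GGGCGG).
Kcng4 (chr8:119635631-119635930, minus strand): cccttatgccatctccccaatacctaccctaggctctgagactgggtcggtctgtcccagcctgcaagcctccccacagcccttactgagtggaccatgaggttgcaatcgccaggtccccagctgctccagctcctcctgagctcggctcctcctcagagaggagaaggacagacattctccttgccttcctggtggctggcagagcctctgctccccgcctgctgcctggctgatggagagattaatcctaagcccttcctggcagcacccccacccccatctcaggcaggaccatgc
Kcnh2 (chr5:24329542-24329841, minus strand): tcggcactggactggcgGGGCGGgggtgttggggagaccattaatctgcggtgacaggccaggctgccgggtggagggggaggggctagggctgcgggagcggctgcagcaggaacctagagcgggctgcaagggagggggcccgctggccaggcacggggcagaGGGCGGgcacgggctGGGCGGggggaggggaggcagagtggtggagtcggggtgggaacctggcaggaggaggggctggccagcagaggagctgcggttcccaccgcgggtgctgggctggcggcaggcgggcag
Kcnh4 (chr11:100759729-100760028, minus strand): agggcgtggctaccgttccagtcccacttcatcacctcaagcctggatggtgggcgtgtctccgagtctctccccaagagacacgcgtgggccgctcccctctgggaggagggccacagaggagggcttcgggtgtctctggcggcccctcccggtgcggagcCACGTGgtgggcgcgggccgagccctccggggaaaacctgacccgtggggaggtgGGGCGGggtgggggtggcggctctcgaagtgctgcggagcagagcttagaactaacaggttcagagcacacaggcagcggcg
Kcnh7 (chr2:63184238-63184537, minus strand): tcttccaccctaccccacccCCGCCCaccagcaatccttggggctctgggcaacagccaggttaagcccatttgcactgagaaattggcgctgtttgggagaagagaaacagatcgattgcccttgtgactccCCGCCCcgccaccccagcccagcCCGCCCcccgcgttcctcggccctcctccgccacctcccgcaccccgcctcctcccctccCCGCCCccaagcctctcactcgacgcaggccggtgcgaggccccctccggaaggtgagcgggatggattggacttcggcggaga
The Kcng4 window held no match. Kcnh2 held 3 GC boxes and Kcnh7 held 4, and Kcnh4 held 1 E-box and 1 GC box. Of all 32851 promoter windows of this length, 35.7% held a GC box, 7.15% an E-box, 13.6% a TATA box and 1.79% the cyclic AMP response element. Windows existed for 56 of the 78 genes, below the 80% set for a check, so no motif share over the channel genes is given.

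Several of the most variable genes took their spread from 1 library in a group. Kcnh4, an ELK channel, had 1.93, 1.54, 2.16 and 3.19 CPM in rTg4510+3TC, 3.32, 20.7, 5.28 and 2.78 CPM in rTg4510 and 7.31, 5.50, 23.8 and 4.34 CPM in littermates. The high values were those of rTg4510 F3 and littermate M2, and all 4 rTg4510+3TC libraries lay below the lowest littermate. Kcnab3, the Kv beta subunit with the largest spread, had 102, 39.2, 43.4 and 39.2 CPM in rTg4510+3TC, 49.0, 123, 27.5 and 43.3 CPM in rTg4510 and 36.7, 49.0, 104 and 29.0 CPM in littermates. Its high libraries, rTg4510+3TC F2, rTg4510 F3 and littermate M2, were 1 per group, and the 9 others lay between 27.5 and 49.0 CPM. Kcnt1, a sodium-activated channel, had 106, 60.1, 54.3 and 70.6 CPM in rTg4510+3TC, 60.8, 169, 78.0 and 75.6 CPM in rTg4510 and 56.7, 58.5, 118.3 and 63.7 CPM in littermates, with the same 3 libraries highest. Kcnf1, a silent subunit, had 50.8, 66.8, 60.1 and 68.0 CPM in rTg4510+3TC, 52.1, 149, 83.3 and 69.3 CPM in rTg4510 and 58.2, 55.8, 114 and 80.9 CPM in littermates, and there rTg4510 F3 and littermate M2 were highest while rTg4510+3TC F2 was lowest.

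Kcnj13 was the most variable gene of all. It encodes an inward rectifier of the choroid plexus epithelium and other transporting epithelia. Kcnj13 had 1.34, 1.34, 1.85 and 2.13 CPM in rTg4510+3TC, 0.170, 1.82, 46.0 and 1.06 CPM in rTg4510 and 29.1, 16.4, 0.925 and 1.24 CPM in littermates. Its 3 high libraries, rTg4510 M1 and littermates F1 and F3, were the 3 with high Ttr. The summed choroid plexus markers ran from 307 to 408 CPM in rTg4510+3TC, 244 to 6753 CPM in rTg4510 and 368 to 5629 CPM in littermates (9 of 9 genes tested), and their part in the level of Kcnj13 was not tested. Its log2 fold change was -2.88 ± 1.40 in rTg4510+3TC against rTg4510 and -2.85 ± 1.40 in rTg4510+3TC against littermates (SE, edgeR adjusted p = 1 and 0.608), and without the 3 libraries highest in Ttr it was 0.70 ± 0.62 (adjusted p = 0.917) and 0.61 ± 0.71 (adjusted p = 0.863). Kcnj13 shares 623 exon bases with Gigyf2 on the other strand. The strand setting of the counting is not given, and exons of 26 of the 78 genes overlap an annotated gene in this way.

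In rTg4510 against littermates, none of the 78 genes passed edgeR's quasi-likelihood test at an adjusted p under 0.05, where 0.0301% of 16618 tested genes did. At an unadjusted p under 0.05 there was 1 channel gene (1.28%), against 5.24% of all genes. DESeq2 and limma-voom also called 0 of the 78. No channel gene had all rTg4510 libraries above all littermates (2.17% of all genes did) and 1, Kcnq1ot1, had them all below (1.72% of all genes). Log2 fold changes were positive in 44 genes and negative in 34, with a median of 0.031, against -0.0014 for all genes. They ran from -0.84 to 0.98. The median turned negative without 1 library in 2 cases, at -0.085 without rTg4510 F3 and -0.017 without littermate M3. The 95% interval lay within 1 log2 unit either side of 0 for 59 genes and within 0.5 for 26, so changes of more than 2-fold lay outside the interval of 59 genes.

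Kcnq1ot1 is a long non-coding RNA transcribed against the Kcnq1 gene of an imprinted cluster (mm10 chr7:143203458-143296549). It had 44.7, 34.6, 50.1 and 39.1 CPM in rTg4510+3TC, 36.2, 43.9, 51.3 and 47.0 CPM in rTg4510 and 53.9, 53.7, 52.6 and 62.5 CPM in littermates. All 8 rTg4510 and rTg4510+3TC libraries were below the lowest littermate. In rTg4510 against littermates its log2 fold change was -0.32 ± 0.13 (SE, edgeR adjusted p = 0.945), with a 95% interval of -0.59 to -0.044.

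Kcng2, a silent subunit that joins Kv2 channels (mm10 chr18:80294546-80364254), had 12.8, 23.8, 15.2 and 10.6 CPM in rTg4510+3TC, 21.4, 4.16, 14.5 and 22.6 CPM in rTg4510 and 35.1, 27.8, 11.5 and 37.8 CPM in littermates. Littermates F1, F3 and M3 were above every library of the other groups, while littermate M2 was lower than all but rTg4510 F3 and rTg4510+3TC M3. Its log2 fold change in rTg4510 was -0.84 ± 0.46 (edgeR adjusted p = 0.965), and -0.53 without rTg4510 F3. The dentate granule markers, 10 of 10 tested, summed to 362 to 435 CPM in rTg4510, against 392 to 600.3 CPM in littermates. Their list score was -0.996 to 0.276 in rTg4510, against -0.065 to 0.739 in littermates, with littermate M2 the lowest of its group. Their part in the level of Kcng2 was not tested, and in bulk tissue fewer cells of a type and less RNA per cell cannot be told apart.

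Kcnh7, an ERG channel, had 8.72, 11.1, 9.24 and 13.9 CPM in rTg4510+3TC, 12.6, 45.8, 6.17 and 19.2 CPM in rTg4510 and 10.1, 13.8, 14.2 and 5.71 CPM in littermates. The value of rTg4510 F3 exceeded every other library by more than 2-fold, and the groups overlapped. Its log2 fold change was 0.94 ± 0.47 (edgeR adjusted p = 0.965), and without rTg4510+3TC F2, rTg4510 F3 and littermate M2 it was 0.36 ± 0.36 (adjusted p = 0.902). Kcnh7 shares 696 exon bases with Gca on the other strand. Its relative Kcnh5, an EAG channel, had 10.9, 6.17, 6.06 and 3.96 CPM in rTg4510+3TC, 6.61, 29.3, 5.90 and 5.40 CPM in rTg4510 and 6.38, 8.50, 10.2 and 7.30 CPM in littermates, again with rTg4510 F3 highest.

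Other genes among the smallest p-values in this comparison had smaller differences. Kcnn1, an SK subunit, averaged 22.1 ± 2.59 CPM in rTg4510+3TC, 22.2 ± 2.62 CPM in rTg4510 and 26.3 ± 4.08 CPM in littermate libraries (SD, n = 4 each). Kcnip4, a KChIP, averaged 32.9 ± 11.5 CPM in rTg4510+3TC, 33.6 ± 8.69 CPM in rTg4510 and 43.4 ± 6.03 CPM in littermate libraries (SD, n = 4 each). Their log2 fold changes in rTg4510 were -0.25 ± 0.13 and -0.37 ± 0.23 (SE), and those of Kcnd1, a Kv4 subunit, and Kcna3, a Kv1 subunit also made by microglia, were 0.29 ± 0.15 and 0.35 ± 0.21, with edgeR adjusted p between 0.945 and 1 for all of the 78 genes. Summed microglial markers ran from 493 to 739 CPM in rTg4510+3TC, 577 to 654 CPM in rTg4510 and 427 to 604 CPM in littermates. In rTg4510+3TC F2, the library highest in Kcna3, the microglial list score was -0.249, the lowest of its group. The part of these markers in the level of Kcna3 was not tested.

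In rTg4510+3TC against rTg4510, which sets treated against untreated mice of the transgenic line, 0 of 78 channel genes and 0% of all genes passed edgeR's test. At an unadjusted p under 0.05 there were 5 channel genes (6.41%), against 3.82% of all genes, and DESeq2 and limma-voom called 0 of the 78. The groups did not overlap for Kcnc2, which was higher (1.25% of all genes), and Kcnk1, which was lower (1.21% of all genes). Log2 fold changes were positive in 28 genes and negative in 50, with a median of -0.056, against -0.00054 for all genes, and 59 intervals lay within 1 log2 unit of 0.

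Kcnc2, a Kv3 subunit of fast-spiking interneurons (mm10 chr10:112271121-112467024), had 164, 109, 116 and 115 CPM in rTg4510+3TC, 93.5, 104, 96.2 and 105 CPM in rTg4510 and 113, 97.7, 113 and 105 CPM in littermates. The lowest rTg4510+3TC library was above the highest rTg4510 library, and rTg4510+3TC F2 stood far above the rest. In rTg4510+3TC F2 the interneuron list score was -0.359, the lowest of all libraries, and the thalamic list score was 2.09. The part of these markers in the level of Kcnc2 was not tested. The log2 fold change was 0.34 ± 0.12 (SE, edgeR adjusted p = 1), and 0.21 ± 0.075 (adjusted p = 1) without rTg4510+3TC F2, rTg4510 F3 and littermate M2. Kcnk1, the leading leak channel (mm10 chr8:125995170-126030685), had 73.3, 86.8, 92.4 and 84.0 CPM in rTg4510+3TC, 101, 104, 101 and 92.6 CPM in rTg4510 and 81.6, 88.1, 111 and 72.2 CPM in littermates. All rTg4510+3TC libraries lay below the lowest rTg4510 library, while littermates ranged on both sides. Its log2 fold change was -0.25 ± 0.12 (edgeR adjusted p = 1).

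Kcnh3, an ELK channel of forebrain neurons, had 39.9, 82.7, 70.3 and 99.2 CPM in rTg4510+3TC, 109, 213, 83.0 and 103 CPM in rTg4510 and 99.2, 104, 193 and 103 CPM in littermates. The library rTg4510+3TC F2 was lowest, and rTg4510 F3 and littermate M2 were far above the remaining 9 libraries. Its log2 fold change in rTg4510+3TC against rTg4510 was -0.80 ± 0.33 (edgeR adjusted p = 1), and -0.23 ± 0.12 (adjusted p = 1) without the same 3 libraries. For Kcnh4 the same contrast gave -1.87 ± 0.68 (edgeR adjusted p = 1), and -0.73 ± 0.34 (adjusted p = 1) without them.

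Kcnv1, a silent subunit, had 15.4, 35.2, 37.4 and 34.4 CPM in rTg4510+3TC, 35.8, 102, 46.7 and 27.96 CPM in rTg4510 and 35.6, 43.0, 54.4 and 43.0 CPM in littermates. The lowest was rTg4510+3TC F2 and the highest rTg4510 F3, and the other 6 libraries of these 2 groups lay between 27.96 and 46.7 CPM and overlapped. Kcnh1, an EAG channel, had 32.8, 60.1, 49.2 and 50.3 CPM in rTg4510+3TC, 57.0, 123, 58.3 and 47.1 CPM in rTg4510 and 56.2, 64.2, 68.8 and 68.0 CPM in littermates, and the same 2 libraries were its lowest and highest. Kcng4 stood at 28.4 CPM in rTg4510+3TC F2 and at 8.37 to 14.6 CPM in the other 11 libraries, and Kcnj16 at 57.5 CPM in rTg4510+3TC F2 and at 34.7 to 48.1 CPM elsewhere. The thalamic markers of rTg4510+3TC F2 summed to 1104 CPM, against 207 to 434 CPM in the other libraries, and their part in these values was not tested.

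**Figure D4:**
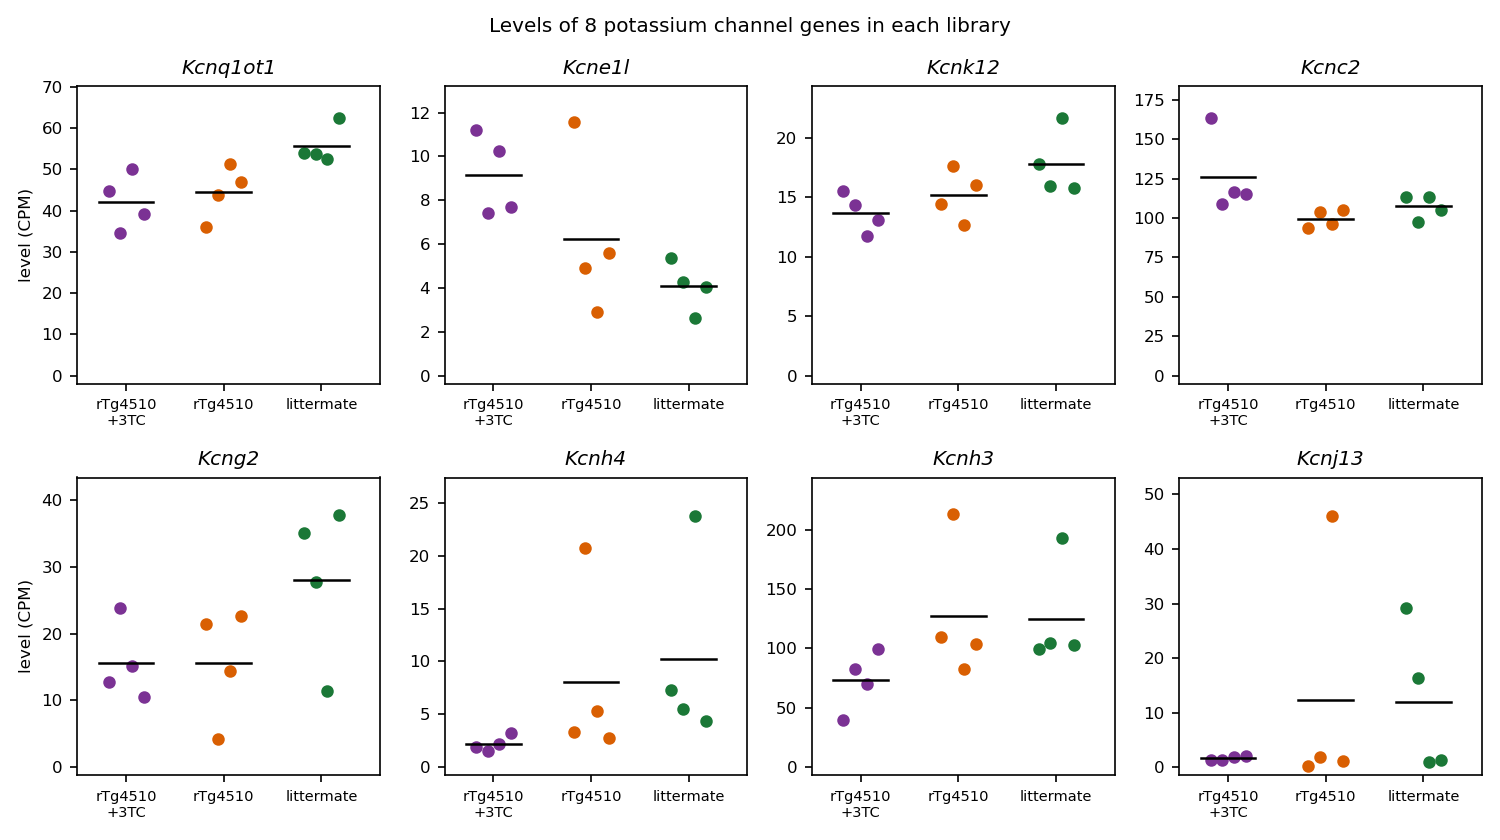
Level in CPM (vertical axes, linear, from 0) of 8 potassium channel genes in each library, by group from left to right as rTg4510+3TC, rTg4510 and littermate, with 1 point per library (n = 4 each) and a line at the group mean. Kcnq1ot1 shows all 8 transgenic libraries at or below 51.3 CPM and all littermates at or above 52.6 CPM, whereas Kcnh4, Kcnh3 and Kcnj13 show 1 or 2 high points in a group.

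In rTg4510+3TC against littermates, again 0 of 78 genes passed edgeR's test, where 0.0481% of all genes did, and DESeq2 and limma-voom called 0. At an unadjusted p under 0.05 there were 5 channel genes (6.41%), 1 with a positive and 4 with a negative log2 fold change, against 8.59% of all genes. The groups did not overlap for Kcne1l, which was higher (2.95% of all genes), nor for Kcnh4, Kcnh3, Kcnk12 and Kcnq1ot1, which were lower (2.91% of all genes). For Kcnh3 the highest rTg4510+3TC library, at 99.19 CPM, was barely below the lowest littermate, at 99.21 CPM. Log2 fold changes were positive in 28 genes and negative in 50, with a median of -0.073, against -0.0040 for all genes, and 56 intervals lay within 1 log2 unit of 0. This contrast shares its rTg4510+3TC libraries with the one before and its littermates with the first, so the 3 do not repeat one another independently.

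Kcne1l encodes a KCNE subunit that modulates Kv pores (mm10 chrX:142304752-142306294). It had 11.2, 7.43, 10.3 and 7.69 CPM in rTg4510+3TC, 11.6, 4.90, 2.92 and 5.59 CPM in rTg4510 and 5.36, 4.27, 2.63 and 4.03 CPM in littermates. All rTg4510+3TC libraries were above all littermates, and rTg4510 F2 reached the rTg4510+3TC level while the other 3 rTg4510 libraries lay lower. Against littermates its log2 fold change in rTg4510+3TC was 1.16 ± 0.35 (SE, edgeR adjusted p = 0.406), with a 95% interval of 0.40 to 1.93. Without rTg4510+3TC F2, rTg4510 F3 and littermate M2 it was 0.89 ± 0.37 (adjusted p = 0.448). In rTg4510 against littermates the value was 0.61 ± 0.35, and in rTg4510+3TC against rTg4510 it was 0.55 ± 0.35 (SE, edgeR adjusted p = 0.965 and 1), and without rTg4510 F2 they were 0.12 and 1.03.

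Kcnk12, a K2P subunit (mm10 chr17:87745801-87797994), had 15.5, 14.3, 11.7 and 13.1 CPM in rTg4510+3TC, 14.4, 17.6, 12.7 and 16.1 CPM in rTg4510 and 17.8, 15.9, 21.7 and 15.8 CPM in littermates. Each rTg4510+3TC library was below the lowest littermate, although the nearest values were close, and rTg4510 spanned both. The log2 fold change was -0.38 ± 0.14 (edgeR adjusted p = 0.488). Those of Kcnq1ot1, Kcnh4 and Kcnh3 in this contrast were -0.40 ± 0.13, -2.22 ± 0.68 and -0.77 ± 0.33 (SE), with edgeR adjusted p of 0.415, 0.407 and 0.535. Without littermate M2 the values of Kcnh4 and Kcnh3 were -1.38 and -0.49.

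Kcnj5, a G protein-gated subunit near the count minimum, had 3.33, 0.972, 1.02 and 0.879 CPM in rTg4510+3TC, 0.475, 2.85, 1.59 and 1.44 CPM in rTg4510 and 0.882, 1.45, 0.318 and 0.583 CPM in littermates. Its high value in rTg4510+3TC F2 stood alone in its group. The log2 fold change in rTg4510+3TC against littermates was 0.95 ± 0.63 (edgeR adjusted p = 0.704) and turned to -0.012 ± 0.61 (adjusted p = 0.997) without rTg4510+3TC F2, rTg4510 F3 and littermate M2. Kcna3 likewise stood at 13.8 CPM in rTg4510+3TC F2 and at 8.12 to 8.72 CPM in the other rTg4510+3TC libraries, against 5.96 to 8.44 CPM in littermates.

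With both rTg4510 groups pooled (n = 8) against littermates (n = 4), 0 of 78 genes passed edgeR's test, where 0.0481% of all genes did, and DESeq2 and limma-voom called 0. At an unadjusted p under 0.05 there were 6 channel genes (7.69%), against 8% of all genes. No channel gene had all 8 libraries above all littermates (0.794% of all genes), and 1, Kcnq1ot1, had them all below (0.511% of all genes). The log2 fold change of Kcnq1ot1 was -0.36 ± 0.11 (SE, edgeR adjusted p = 0.449), with a 95% interval of -0.60 to -0.13, and that of Kcng2 was -0.84 ± 0.38 (edgeR adjusted p = 0.618).

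**Figure D5:**
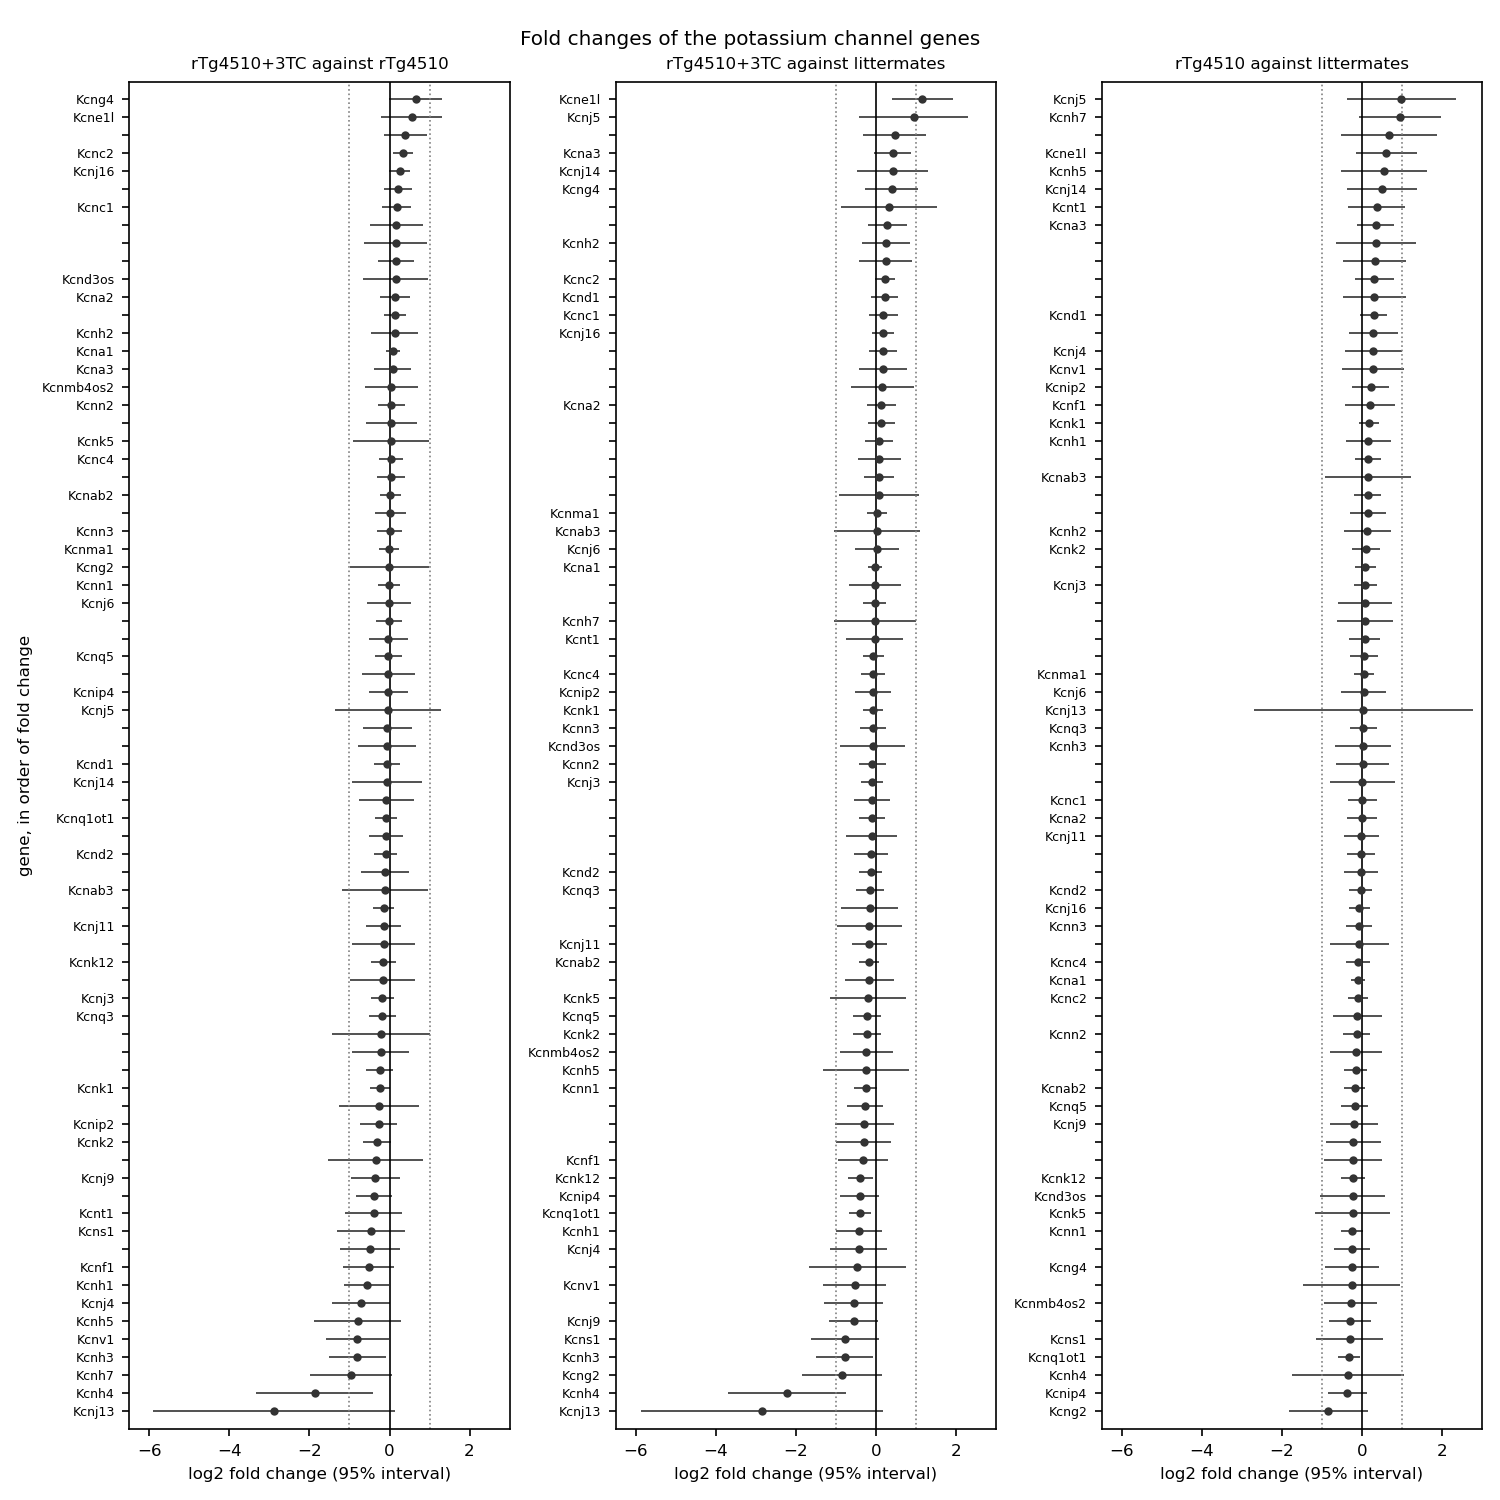
Log2 fold change (horizontal axes, log2 units, with dotted lines at 1 log2 unit either side of 0) and its 95% interval (lines) for 74 potassium channel genes, with those described in the text named and each panel in its own order of fold change: rTg4510+3TC against rTg4510, rTg4510+3TC against littermates, and rTg4510 against littermates. Most points lie between the dotted lines, none passed at an adjusted p under 0.05, and the widest intervals are those of Kcnj13.

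Leaving out rTg4510+3TC F2, rTg4510 F3 and littermate M2, the libraries with the largest shares of deviating channel genes, narrowed the intervals. Since the libraries left out were those farthest from average in these same genes, that narrowing was built in. The p-values of the fit without them, here and above, may therefore be too small and serve as description only. Littermate F1, with its thalamic and striatal scores, stayed among the 9 libraries kept. In the 9 libraries the median half-width of the 95% interval was 0.34 in each comparison of 2 groups, against 0.54 with all 12. Still 0 of 78 channel genes passed edgeR's test in any of the 4 comparisons, while 36 of 16742 tested genes did in rTg4510 against littermates, 0 in rTg4510+3TC against rTg4510, 71 in rTg4510+3TC against littermates and 108 with both rTg4510 groups together. Out of 78 channel genes, 10, 4, 15 and 13 had an unadjusted p under 0.05 in the same order. These are counts, and the shares of all genes with such a p were 7.6%, 3.32%, 10% and 10.3%. The smallest adjusted p belonged to Kcng2, with a log2 fold change of -0.90 ± 0.21 (adjusted p = 0.0781) for both rTg4510 groups against littermates. Next to it, Kcnip4 gave -0.50 ± 0.13 (adjusted p = 0.151) in that comparison. In rTg4510 against littermates, Kcnq5, a Kv7 subunit, gave -0.37 ± 0.093 (adjusted p = 0.221). The dentate granule score over these 9 libraries was -0.317 to 0.051 in rTg4510+3TC, -0.094 to 0.276 in rTg4510 and 0.504 to 0.739 in littermates, so all littermates lay above both rTg4510 groups, and its part in the values of Kcng2 was not tested.

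Genes that act with potassium channels without carrying a Kcn symbol also gave no call. Of 28 partner genes, such as the Kv4 partners Dpp6 and Dpp10 and the Kv1 partners Cntnap2 and Lgi1, 27 were tested and 0 passed edgeR's test in any of the 4 comparisons. At an unadjusted p under 0.05 there was 1, Abcc8, the sulfonylurea receptor that surrounds the Kcnj11 pore, in rTg4510+3TC and in both rTg4510 groups together against littermates, where 8.59% and 8% of all genes had such a p. In rTg4510+3TC it had a log2 fold change of -0.42 ± 0.19 (edgeR adjusted p = 0.576). All 25 genes of the HCN channels and of potassium pumps and transporters were tested, and 0 passed in any comparison, with 0, 1, 4 and 3 at an unadjusted p under 0.05 in the order used above, against 5.24%, 3.82%, 8.59% and 8% of all genes. DESeq2 and limma-voom also called 0 genes of either list.

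Slc12a4, a potassium-chloride cotransporter, had 28.4, 26.8, 29.1 and 26.5 CPM in rTg4510+3TC, 25.3, 29.4, 41.3 and 30.2 CPM in rTg4510 and 41.9, 39.0, 35.2 and 30.8 CPM in littermates. Its rTg4510+3TC libraries were all below the littermates, with a log2 fold change of -0.41 ± 0.14 (edgeR adjusted p = 0.441).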

How the data were processed

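The values are raw read counts per gene symbol for 12 libraries, as deposited by the authors. STAR, DESeq2 and the build mm10 are named, without roles, per the submitters' processing notes. Which annotation and strand setting the counting used is not stated in the labels. Of 24411 entries, 27 carry dates in place of symbols (0.285% to 0.363% of counts) and were left out. The potassium channel genes, their classes, the partner and marker lists and the rule for naming genes were chosen with earlier results of these data known.

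TMM factors scaled the counts, filterByExpr kept 16618 genes (group as its factor, minimum count 10, total 15), and edgeR 4.0.16 under R 4.3.3 fitted group as the only term. P-values came from quasi-likelihood tests and were adjusted over all genes by Benjamini-Hochberg. A standard error is the log2 fold change over the square root of F, and 95% intervals use the prior and residual degrees of freedom (medians 4.01 and 9). Positions, exon lengths and exon overlaps came from GENCODE M21 on mm10, in which all 98 Kcn symbols matched. Relative counting error is larger where counts are few, as for Kcne1l with 91 counts in littermate M2 and Kcnh4 with 54 in rTg4510+3TC F3. Its size beside the spread between libraries was not worked out. Genes named are the 4 with the smallest p in each direction of each comparison of 2 groups, the highest of each class and the 6 most variable, and others were named after their values were seen. Some genes that this rule takes are not reported here. The fit was tested on simulated counts. Alternatives were DESeq2 1.42.0 size factors and Wald test, limma-voom (limma 3.58.1), other filters, sex terms, a replicate block, the 8 libraries of a comparison alone, and leaving out libraries singly and in 2 sets of 3.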

Additional observations from a re-analysis of the deposited data

Results flagged for a closer look

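Among 90 groups of 4 libraries in which a named potassium channel gene was examined for 1 library far from the others (Dixon's criterion), 17 had such a library. By chance the criterion flags about 1 in 20 groups, but that rate does not hold here, since some of these genes were named for their large spread or small p. In rTg4510+3TC, all of them were F2. That library had 13.8 CPM of Kcna3 (others 8.12 to 8.72), 102 CPM of Kcnab3 (39.2 to 43.4), 164 CPM of Kcnc2 (109 to 116), 3.33 CPM of Kcnj5 (0.879 to 1.02) and, on the low side, 15.4 CPM of Kcnv1 (34.4 to 37.4).

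In rTg4510, F3 stood apart with 123 CPM of Kcnh1 (47.1 to 58.3), 20.7 CPM of Kcnh4 (2.78 to 5.28), 29.3 CPM of Kcnh5 (5.40 to 6.61), 216 CPM of Kcnip2 (151 to 158) and 169 CPM of Kcnt1 (60.8 to 78.0). The library rTg4510 M1 had 46.0 CPM of Kcnj13 (0.170 to 1.82), and rTg4510 F2 had 11.9 CPM of Kcng4 (8.78 to 9.09).

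In littermates, M2 stood apart with 304.9 CPM of Kcna2 (217 to 224), 193 CPM of Kcnh3 (99.2 to 104), 23.8 CPM of Kcnh4 (4.34 to 7.31) and 118.3 CPM of Kcnt1 (56.7 to 63.7). Littermate M3 had 62.5 CPM of Kcnq1ot1 (52.6 to 53.9).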

How the results depend on the processing

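Under every alternative run, 0 potassium channel genes passed at an adjusted p under 0.05 in each of the 4 comparisons, DESeq2 (22 of all genes in rTg4510 against littermates, 1 in rTg4510+3TC against rTg4510, 100 in rTg4510+3TC against littermates, 89 with both rTg4510 groups together) and limma-voom (5, 0, 9 and 10) included. The median log2 fold change of the channel genes in rTg4510 against littermates was 0.031 and moved to 0.15 with the replicate code as a replicate block. The code pairs no libraries by the labels, correlations of same-coded libraries ran from -0.254 to 0.17, and the block called 0 channel genes. Leaving out 1 library at a time gave medians of -0.085 to 0.067 for rTg4510 against littermates, the lowest without rTg4510 F3. Kcnj5 in rTg4510+3TC against littermates was 0.95 and reversed to -0.012 without rTg4510+3TC F2, rTg4510 F3 and littermate M2. Without the 3 libraries highest in Ttr, 0 channel genes and 0 of all genes passed. The causes were not tested. For both rTg4510 groups together, the fit on only the libraries of the comparison is the fit already reported. With 4 libraries a group, the median half-width of the 95% intervals was 0.54 log2 units in rTg4510 against littermates, which limits what size of difference could be seen.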
